A study of Mus musculus with 9 samples.

Results

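Hoxb5, Hoxb6 and Hoxb7 are neighbouring genes of the Hoxb cluster, 1 of the Hox clusters of the mouse. They were measured in neural crest and other cells sorted from the head and the trunk of embryos at E12.5. The members are the 3 probes, of 23473 on the array, that carry these symbols in the supplementary probe list of the study. That list gives a gene name to 306 probes. The study chose it for differences among the groups on 8 of the 9 arrays described here, so the tests below on the difference between head and trunk are not independent evidence of its direction. Replicate 3 of the trunk EGFP+ cells was the array that the list did not use.

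The embryos carried P0-Cre and a floxed EGFP reporter. P0-Cre is a Cre recombinase under the promoter of myelin protein zero, a gene of Schwann cells, and it switches EGFP on in cells of the neural crest lineage for good. All 4 groups came from such embryos and were separated by region and by EGFP with fluorescence-activated cell sorting. EGFP+ cells were taken on 2 arrays from the craniofacial region (Cp) and on 3 arrays from the trunk (Tp). EGFP- cells were taken on 2 arrays from each region, named Cn for the craniofacial region and Tn for the trunk. The heart fields had been taken off the trunk. The line is known to label a few cells of the notochord too, and the EGFP+ cells may be a mixture of cell types. The EGFP- groups hold whatever else the region contains. The arrays have 1 colour, and each member has 1 spot on each array. The sources do not say whether replicates came from separate litters, so p-values measure only the spread between these arrays.

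Hox genes encode homeodomain transcription factors that give cells of the embryo their position along the axis from head to tail. They lie in clusters, and their order along the chromosome mirrors the order in which they come on along the body, with genes at one end of a cluster expressed into the hindbrain and genes towards the other end starting further back. Neural crest cells that populate the face from the forebrain and midbrain are known to lack Hox expression, whereas crest cells of the trunk carry the Hox genes of their level. Hoxb5, Hoxb6 and Hoxb7 belong to the middle of the cluster. Hoxb5 is known for its role in crest cells that form the enteric nervous system. Hoxb6 and Hoxb7 are known from the mesoderm, the limb and the skeleton of the trunk, and the Hoxb7 promoter is also widely used to drive transgenes in the ureteric bud.

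All 3 genes were bright in the trunk and close to the blank spots in the head. This held in EGFP+ and in EGFP- cells alike, and for each gene the 5 trunk arrays lay above the 4 craniofacial arrays without overlap, as they did for 0.565% of the probes tested with a reading on every array. The genes come from a list chosen for such differences, so nothing further is read from this. Neither within the trunk nor within the head did EGFP+ and EGFP- cells differ beyond the test's threshold for any of the 3. The unit of the scanner readings is the median signal of the spot. Blank spots, which carry no probe, had a mean of 11.7 to 34.3 units on the 9 arrays, and a limit was set on each array at their mean plus 2 SD, which was 14.0 to 38.7 units.

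Hoxb5 read 435 units on Tp replicate 1, 357 on Tp replicate 2 and 355 on Tp replicate 3. In Tn it read 372 and 389 units. In Cp it read 17 and 32, and in Cn 17 and 29. The lowest trunk array was thus far above the highest craniofacial array. Set against the blank spots of its own array, the Hoxb5 spot stood at 10.3 to 33.7 times their mean in the trunk and at 1.24 to 1.45 times in the head. The lowest trunk ratio belonged to Tp replicate 3, the array with the highest blank spots. Among all probes of an array, Hoxb5 ranked at percentile 85.0 to 88.7 in the trunk and at percentile 23.1 to 28.4 in the head.

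Hoxb6 read 1207, 794 and 1364 units on the 3 Tp arrays and 672 and 927 units on the 2 Tn arrays. In Cp it read 16 and 31 units, and in Cn 14 and 29. Tp and Tn overlapped, since Tp replicate 2 lay between the 2 Tn arrays. The Hoxb6 spot was 39.7 to 93.4 times the blank mean in the trunk and 1.20 to 1.32 times in the head. Its percentile on the array was 92.9 to 95.7 in the trunk and 15.9 to 23.6 in the head.

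Hoxb7 read 443, 934 and 936 units on the 3 Tp arrays and 568 and 1065 units on the 2 Tn arrays. In Cp it read 15 and 29 units, and in Cn 14 and 33. The 2 lowest trunk values, those of Tp replicate 1 and Tn replicate 1, came from arrays that were scanned on the same date. The Hoxb7 spot was 27.3 to 67.0 times the blank mean in the trunk and 1.13 to 1.42 times in the head, at percentile 88.9 to 94.0 and 14.1 to 31.9.

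**Figure D1:**
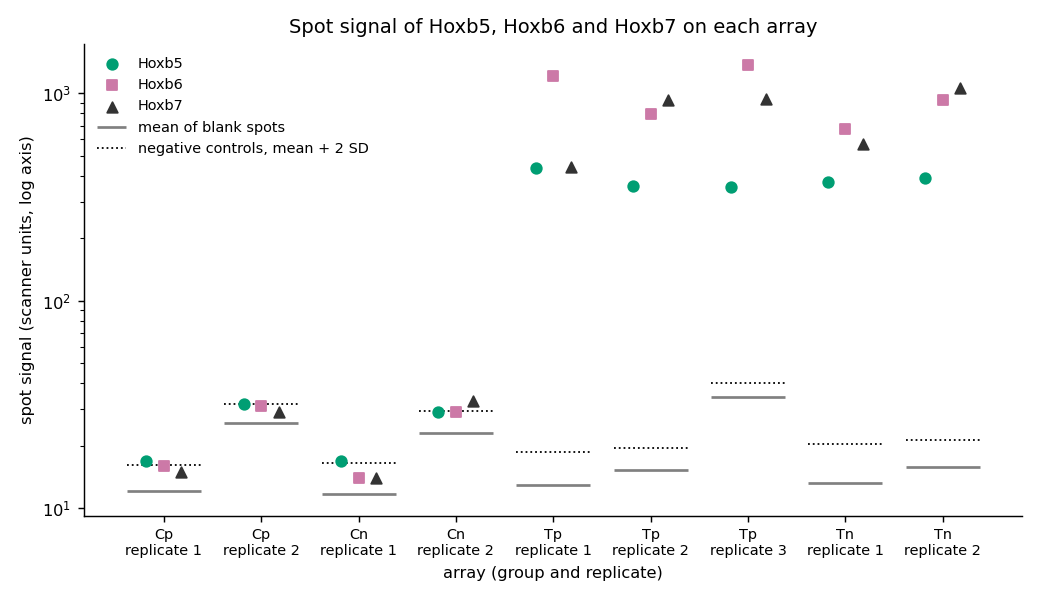
Spot signal of Hoxb5, Hoxb6 and Hoxb7 (scanner units, log axis) on each of the 9 arrays. Grey bars mark the mean of the blank spots of the array and dotted bars the mean plus 2 SD of its negative control spots. On the 5 trunk arrays every point lies between 355 and 1364 units, and on the 4 craniofacial arrays between 14 and 33 units, beside both bars.

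Whether the head held any signal of these genes was at the limit of the arrays. Hoxb5 and Hoxb6 passed the limit set by the blank spots on 4 of 4 craniofacial arrays and Hoxb7 on 3 of 4, but the margins were of a few units and the readings are whole numbers. The craniofacial spots exceeded the blank mean by 4.85 to 6.27 units for Hoxb5, by 2.30 to 5.84 for Hoxb6 and by 2.30 to 9.84 for Hoxb7. Negative control spots, which hold probes without a target, were brighter than blank spots. Against their mean plus 2 SD, Hoxb5 passed on 3 of 4 craniofacial arrays, Hoxb7 on 1 of 4 and Hoxb6 on 0 of 4, whereas each of the 3 passed on 5 of 5 trunk arrays. Hoxb6 passed on no array of Cp or Cn, Hoxb7 on 0 of 2 in Cp and 1 of 2 in Cn, and Hoxb5 on 2 of 2 in Cp and 1 of 2 in Cn. A fold between regions is therefore given only as a floored fold, on the scale of the fit. For it, a dim array below the lowest signal that passed the negative controls was set to that signal. None is given for Hoxb5 between Tp and Cp, where the floor changes nothing and both Cp readings lie within 1 unit of the brightest negative control. A floored fold is a point estimate that is limited on the dim side only. It leaves out the spread between arrays and the choice of background, so it is no lower bound.

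The first question was how position separates the EGFP+ cells. The difference was fitted with limma on log2 values after normexp background correction with an offset of 50 and quantile normalization, with all 4 groups in 1 fit. The offset is added to each signal before the log is taken, so it narrows the folds of dim spots. On this scale Hoxb5 was 8.66 ± 0.24 in Tp (SD, n = 3) and 5.86 ± 0.01 in Cp (SD, n = 2), a difference Cp minus Tp of -2.79 with a standard error of 0.14 (limma, adjusted p = 9.99e-05). Hoxb6 was 10.10 ± 0.39 in Tp (SD, n = 3) and 5.84 in Cp, a difference of -4.26 with a standard error of 0.19 (limma, adjusted p = 6.55e-05). Its floored fold was 18.9, higher in Tp. Hoxb7 was 9.55 ± 0.51 in Tp (SD, n = 3) and 5.80 ± 0.01 in Cp (SD, n = 2), a difference of -3.75 with a standard error of 0.28 (limma, adjusted p = 0.000416). Its floored fold was 12.9, higher in Tp. These sizes depend on the offset, and at an offset of 0 the differences were -5.45, -7.20 and -6.93 in that order. All 3 passed, against 5.28% of the 21965 probes tested that were lower in Cp. Over all probes tested, 10.2% passed in either direction.

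The EGFP- cells of the same regions gave the same comparison outside the labelled lineage. Hoxb5 was 8.65 ± 0.22 in Tn and 5.89 ± 0.04 in Cn (SD, n = 2 each), a difference Cn minus Tn of -2.76 with a standard error of 0.16 (limma, adjusted p = 0.000492). Its floored fold was 6.72, higher in Tn. Hoxb6 was 9.63 ± 0.03 in Tn and 5.84 ± 0.04 in Cn (SD, n = 2 each), a difference of -3.79 with a standard error of 0.21 (limma, adjusted p = 0.000492). Its floored fold was 13.2, higher in Tn. Hoxb7 was 9.62 ± 0.33 in Tn and 5.88 ± 0.10 in Cn (SD, n = 2 each), a difference of -3.74 with a standard error of 0.31 (limma, adjusted p = 0.00278). Its floored fold was 12.9, higher in Tn. All 3 passed here too, where 0.751% of the probes tested were lower in Cn and 1.55% passed in either direction. In bulk RNA of sorted cells, fewer cells that express a gene and less RNA of it per cell cannot be told apart.

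Arrays were read on 4 dates, and a scan here means the arrays read on 1 date. The first scan held replicate 1 of all 4 groups, so that the regional difference could also be taken within it. There Cp minus Tp was -3.06 for Hoxb5, -4.45 for Hoxb6 and -3.15 for Hoxb7, and Cn minus Tn was -2.89, -3.80 and -3.58 for the same genes in that order. With the scan as a block, all 6 differences passed, where 5.2% of the probes tested were lower in Cp than in Tp and 0.469% lower in Cn than in Tn. They were -3.04 for Hoxb5 (limma, adjusted p = 0.00212), -4.30 for Hoxb6 (limma, adjusted p = 0.00340) and -3.30 for Hoxb7 (limma, adjusted p = 0.00298) in Cp minus Tp. Outside the first scan, no scan held both regions, so the blocked fit compared the regions only through replicate 1. It leaves 2 residual degrees of freedom. In this blocked fit Tp replicate 3, alone in its scan, adds nothing to the contrasts. When it was instead the only Tp array, Cp minus Tp was -2.60 for Hoxb5 (limma, adjusted p = 0.00362), -4.50 for Hoxb6 (limma, adjusted p = 0.000429) and -4.0 for Hoxb7 (limma, adjusted p = 0.00362), where 2.56% of the probes tested were lower in Cp. The spread is here assumed to be that of the other groups, since 1 array has none of its own. The trunk array that had no part in the choice of these genes thus also read far above the head arrays. Those head arrays did have a part in that choice and shared no scan with it, so this is not independent evidence either.

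The call on Hoxb5 and Hoxb6 rested on how background was taken. The scanner files also give the ring around each spot, and the ring brightened with the spot, with a correlation of 0.909 to 0.985 on the log scale over all probes of an array. On the trunk arrays the ring reached 22.8% to 87.7% of the spot for Hoxb5, 39.9% to 99.8% for Hoxb6 and 20.6% to 47.8% for Hoxb7. On Tn replicate 2, where the Hoxb6 spot read 927 units, its ring read 925. With the ring as background, Hoxb7 still passed, with a Cp minus Tp of -2.95 (limma, adjusted p = 0.0120) and a Cn minus Tn of -3.26 (limma, adjusted p = 0.0214). Hoxb5 and Hoxb6 no longer passed in either comparison. With the ring, 0.282% of the probes tested were lower in Cp than in Tp and 0.0911% lower in Cn than in Tn.

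The authors also deposited a table of processed values, to which no offset was added here, and the regional differences were wider in it. Hoxb5 was 320, 250 and 195 in Tp, 304 and 237 in Tn, 3.82 and 3.80 in Cp, and 3.63 and 4.09 in Cn. Hoxb6 was 914, 582 and 793 in Tp, 552 and 586 in Tn, 2.57 and 2.10 in Cp, and 2.55 and 3.30 in Cn. Hoxb7 was 322, 675 and 534 in Tp, 445 and 676 in Tn, 1.90 and 1.76 in Cp, and 1.97 and 4.28 in Cn. The regions again did not overlap for any of the 3 genes, and the trunk arrays lay above the head in this way for 2.56% of the probes tested. On the log2 scale of these values Cp minus Tp was -6.03 for Hoxb5, -8.33 for Hoxb6 and -8.06 for Hoxb7, and Cn minus Tn was -6.13, -7.62 and -7.56. No exact fold follows from these, since the craniofacial values lie near those of spots with no target. Adjusted p-values in this table, from limma, were 4.15e-07 for Hoxb5, 5.73e-08 for Hoxb6 and 6.49e-07 for Hoxb7 in Cp against Tp. All 3 passed in both comparisons, where 5.08% of the probes tested were lower in Cp and 0.81% lower in Cn.

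**Figure D2:**
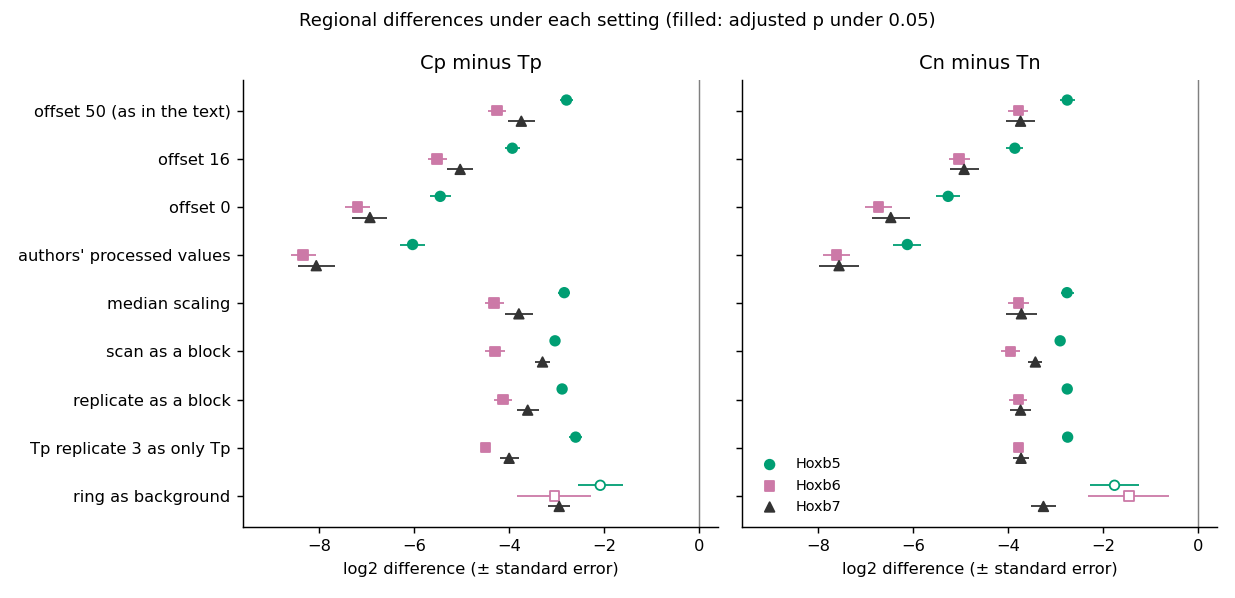
Regional differences of Hoxb5, Hoxb6 and Hoxb7 (log2, with their standard error) in EGFP+ cells, left, and EGFP- cells, right, under 9 ways of processing the arrays. Filled symbols passed limma's test at an adjusted p under 0.05, and every symbol lies below 0. The open symbols, Hoxb5 and Hoxb6 in each panel, are those with the ring as background, and the largest differences are those of the authors' processed values.

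Within the trunk, the comparison of EGFP+ with EGFP- cells asked whether the labelled lineage differs from the other cells of its level. None of the 3 genes passed, where 6.17% of the probes tested did. Tp minus Tn was 0.01 for Hoxb5, with a 95% interval of -0.34 to 0.35 (limma, adjusted p = 0.993), and -0.07 for Hoxb7, with an interval of -0.74 to 0.59 (limma, adjusted p = 0.968). Hoxb6 was 0.47 higher in Tp, with an interval of 0.01 to 0.94 and an unadjusted p of 0.0457 in limma, but did not pass after adjustment (adjusted p = 0.296). The value of Hoxb6 turned on Tp replicate 2, the lowest of the 3 Tp readings of this gene. Without that array, Tp minus Tn of Hoxb6 was 0.69 (limma, adjusted p = 0.00266). Each fit shares 1 spread per gene over all 4 groups. With all arrays, the SD of Hoxb6 was 0 in Cp, 0.04 in Cn, 0.03 in Tn and 0.39 in Tp. That of Hoxb7 was 0.01, 0.10, 0.33 and 0.51 in that order. Head arrays near the blanks thus narrow the trunk intervals, and the lower end of the Hoxb6 interval is not read as a difference.

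Values within a scan showed the same spread. In the first scan, Tp minus Tn of Hoxb6 was 0.69, and in the scan that held replicate 2 of Tp and Tn it was 0.01. Hoxb5 gave 0.12 and 0.08 in these 2 scans, and Hoxb7 -0.43 and 0.02. With the scan as a block, the standard error of Hoxb5 in Tp minus Tn fell from 0.14 to 0.05, and its difference was 0.10 (limma, adjusted p = 0.361). Hoxb5 was the closest of the 3 between Tp and Tn in the first scan and the farthest apart in the other.

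Within the head all 3 genes were close to the blank spots in both groups, so no fold is given. Cp minus Cn was -0.03 for Hoxb5 (limma, adjusted p = 0.968), 0.00 for Hoxb6 (limma, adjusted p = 0.999) and -0.08 for Hoxb7 (limma, adjusted p = 0.951), where 5.75% of the probes tested passed, and none of the 3 was under an unadjusted p of 0.05. In the processed values Cp minus Cn was -0.01, -0.32 and -0.67 for the same genes in that order, and none passed. The spread of the Hoxb7 value came from Cn, where replicate 2 read 33 units on the scanner against a blank mean of 23.2 and was the only craniofacial spot of Hoxb7 above the negative controls.

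Whether the regional difference itself differed between EGFP+ and EGFP- cells was fitted as (Cp minus Tp) minus (Cn minus Tn). Since Cp and Cn both lie near the blanks, this value is Tp minus Tn with its sign turned for the most part, and it adds no separate evidence on the regional gap. It was -0.03 for Hoxb5 with a 95% interval of -0.54 to 0.47, -0.47 for Hoxb6 with an interval of -1.16 to 0.21, and 0.00 for Hoxb7 with an interval of -0.99 to 0.99. None passed, where 7.34% of the probes tested did, and none of the 3 was under an unadjusted p of 0.05. The adjusted p of Hoxb6 was 0.478 in limma. Without Tp replicate 2 the value of Hoxb6 was -0.69 (limma, adjusted p = 0.00887). The intervals of Hoxb6 and Hoxb7 are wide, reaching about 1 unit on the log2 scale.

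**Figure D3:**
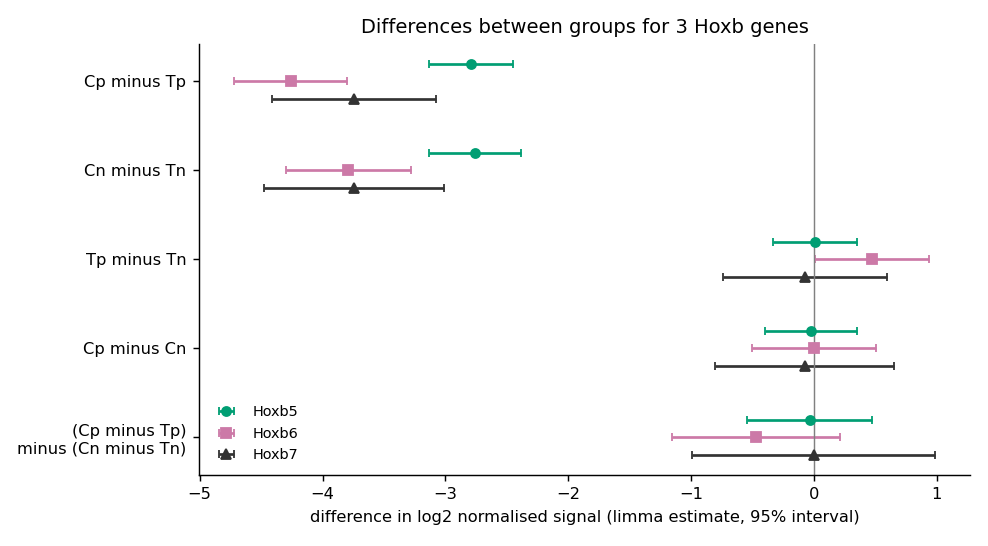
Differences between groups for Hoxb5, Hoxb6 and Hoxb7 in log2 normalised signal, with 95% intervals from limma over all 9 arrays. The intervals rest on 1 spread per gene shared by all 4 groups, to which the head arrays near the blanks add little. The regional differences in the upper rows lie between -4.26 and -2.76, and the intervals of the comparisons within a region and of their difference include 0 except that of Hoxb6 in Tp minus Tn, which runs from 0.01 to 0.94.

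The Hoxb cluster lies on chromosome 11 and holds 10 protein-coding genes in the RefSeq annotation of GRCm38.p6, which was used for names and order only, since the files name no build. Along the chromosome the order is Hoxb13, Hoxb9, Hoxb8, Hoxb7, Hoxb6, Hoxb5, Hoxb3, Hoxb4, Hoxb2 and Hoxb1 by start position, with Hoxb3 and Hoxb4 overlapping. The 3 genes are thus direct neighbours, and Hoxb8 and Hoxb3 flank them. A transcript annotated as Hoxb5os overlaps Hoxb5 and Hoxb6. The probe sequences were not given, so whether a probe could also read that transcript was not tested.

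The 2 flanking genes, the only others of this cluster with a named probe, were lower in the head as well. Hoxb8, which acts further back along the axis, read 28, 33 and 55 units in Tp, 40 and 47 in Tn, 18 and 36 in Cp, and 15 and 31 in Cn. Hoxb3, which is expressed into the hindbrain, read 43, 49 and 61 units in Tp, 41 and 46 in Tn, 22 and 37 in Cp, and 17 and 31 in Cn. Raw readings of Hoxb8 overlapped between regions, and in the processed values neither gene overlapped. Cp minus Tp was -0.22 for Hoxb8 (limma, adjusted p = 0.0449) and -0.40 for Hoxb3 (limma, adjusted p = 0.00741), and Cn minus Tn was -0.45 (limma, adjusted p = 0.0191) and -0.41 (limma, adjusted p = 0.0354). Both were dim in the trunk too, at 1.60 to 3.33 times the blank mean, where the offset narrows a difference most. In the processed values, to which no offset was added here, Cp minus Tp was -1.16 for Hoxb8 (limma, adjusted p = 0.0109) and -1.70 for Hoxb3 (limma, adjusted p = 0.000928). There Cn minus Tn was -2.46 and -2.11. How much RNA each gene made cannot be compared between probes.

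**Figure D4:**
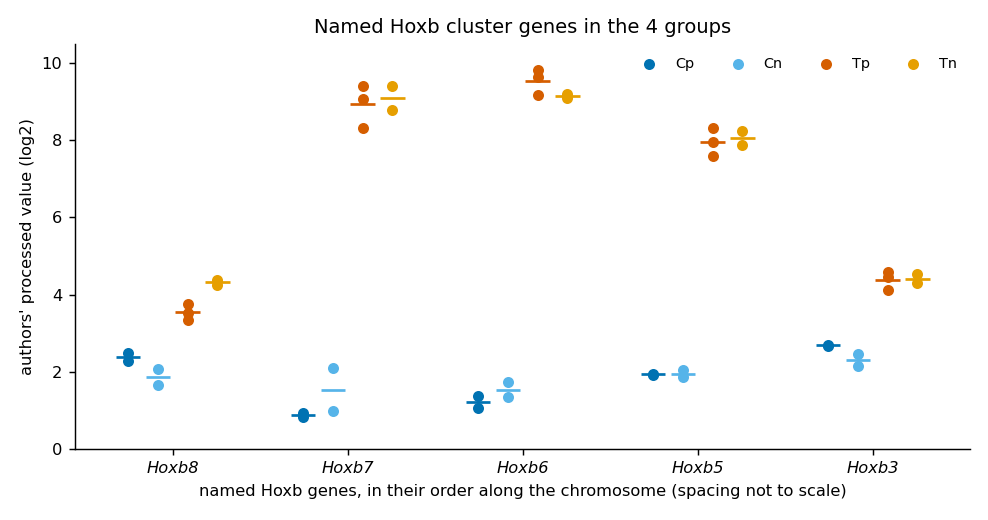
Processed values of the authors (log2) for the 5 named genes of the Hoxb cluster, in their order along the chromosome, with a point for each array and a line at the group mean. In each gene the trunk arrays (Tp, Tn) lie above the craniofacial arrays (Cp, Cn), and the gap is wider in Hoxb7, Hoxb6 and Hoxb5 than in the flanking Hoxb8 and Hoxb3. Levels of different probes cannot be compared.

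Of the 39 Hox genes of the 4 clusters, 15 had a named probe, and all 15 were lower in the head in both comparisons, where 5.28% of the probes tested were lower in Cp and 0.751% lower in Cn. The study chose them on these arrays, so this count is not independent evidence. The 12 other than Hoxb5, Hoxb6 and Hoxb7 had a median Cp minus Tp of -1.41, from -3.37 to -0.22, and a median Cn minus Tn of -1.54, from -4.01 to -0.41. Outside the Hoxb cluster the widest difference was that of Hoxa5, at -3.37 in Cp minus Tp and -4.01 in Cn minus Tn, and the narrowest in Cp minus Tp on this scale was that of Hoxa6, at -0.45. Within the trunk 3 of the 12 fell in Tp against Tn, namely Hoxa10 by 1.13 (limma, adjusted p = 0.00187), Hoxa5 by 0.67 (limma, adjusted p = 0.00477) and Hoxd10 by 0.82 (limma, adjusted p = 0.00764), where 3.11% of the probes tested were lower, and none of the 5 named Hoxb genes passed there, with Hoxb6 and Hoxb8 under an unadjusted p of 0.05. In the processed values 2 of the 12 passed, where 4.35% of the probes tested were lower, and Hoxa5 fell short there at -0.81 (limma, adjusted p = 0.0728). Whether these genes differ in this from the Hoxb genes was not tested. No cofactor of Hox proteins of the Pbx and Meis families (0 of 7) and no known upstream regulator of Hox genes (0 of 11) had a named probe.

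**Figure D5:**
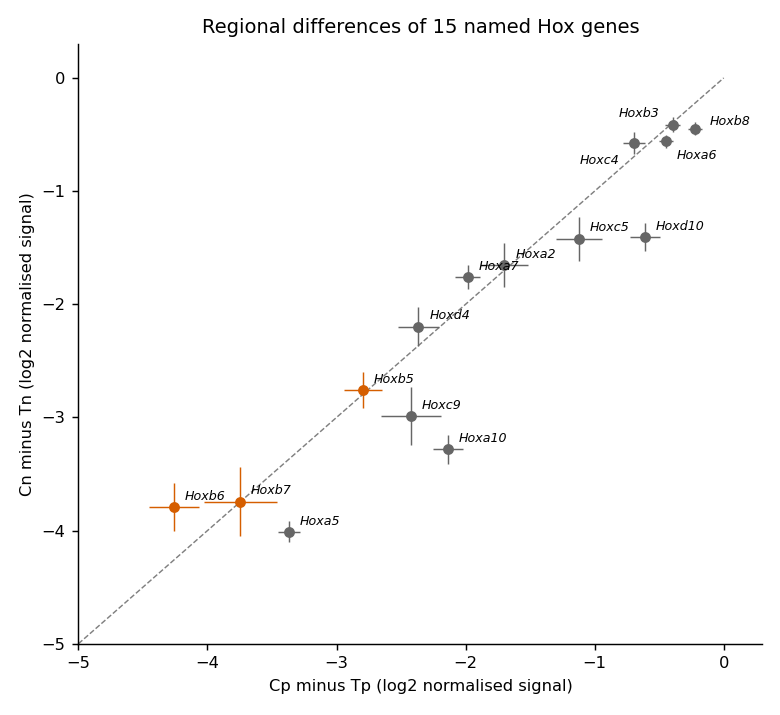
Regional difference of the 15 named Hox genes in EGFP+ cells (Cp minus Tp) and in EGFP- cells (Cn minus Tn), in log2 normalised signal, with standard errors as bars and the line of equal difference dashed. Hoxb5, Hoxb6 and Hoxb7, in orange, run from -4.26 to -2.79 in Cp minus Tp, with Hoxb5 and Hoxb7 on the line and Hoxb6 above it.

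Other Hox genes were the named genes most like the 3 over the arrays. The likeness of every probe tested to the mean of the 3 was taken as Pearson's r over the 9 arrays on the log2 processed values. It rests on the gap between regions and on arrays that the genes share, and is a description. Among the trunk arrays the 3 genes need not rank alike: Tp replicate 1 had the highest Hoxb5 reading of the 5, at 435 units, and the lowest Hoxb7 reading, at 443 units. Over these 5 arrays alone, r was 0.02 between Hoxb5 and Hoxb6, -0.67 between Hoxb5 and Hoxb7 and -0.66 between Hoxb6 and Hoxb7. The named genes most like them were Hoxa7 (r = 0.995), Hoxa5 (r = 0.994), Hoxc5 (r = 0.984), Hoxc9 (r = 0.982) and Hoxd4 (r = 0.980). Of the 10 most similar probes among the 21965, leaving out the 3 themselves, 6 had a name and all 6 were Hox genes. Of the top 50, 14 had a name and 11 of these were Hox genes. In all, 306 probes had a name, with 12 Hox genes besides the 3. Since names come only from the list of the study, the other probes among them are unnamed here.

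The regions also differed in the cell types they held, and these moved with some of the comparisons above. Markers of craniofacial mesenchyme (4 of 4 named) were higher in the head in both comparisons, where 4.88% of the probes tested were higher in Cp than in Tp and 0.801% in Cn than in Tn, with a summed processed value of 807 to 1042 in Cp, 410 to 422 in Cn, 65.2 to 77.3 in Tp and 53.8 to 63.0 in Tn. Markers of peripheral neurons (5 of 5 named) summed to 2375 to 2967 in Tp, against 257 to 284 in Tn, 151 to 157 in Cp and 142 to 176 in Cn. All 5 were lower in Cp than in Tp (5.28% of the probes tested), as Hoxb5, Hoxb6 and Hoxb7 were. Within the trunk, 5 were higher in Tp than in Tn (3.06% of the probes tested). Between Cn and Tn 0 of the 5 passed, or 1 in the processed values, where 1.55% of the probes tested did in the fit. Of the 4 named markers of the neural crest and its glia, 4 were lower in Cp than in Tp (5.28% of the probes tested), as Hoxb5, Hoxb6 and Hoxb7 were, with a sum of 213 to 219 in Cp and 1477 to 1924 in Tp. They summed to 114 to 118 in Cn and to 198 to 202 in Tn. Within regions, 3 were higher in Tp than in Tn (3.06% of the probes tested) and 2 higher in Cp than in Cn (2.26% of the probes tested), or 1 in the processed values. Forebrain markers (4 of 4) were higher in Cn, at 1964 to 2296, than in Tn, at 254 to 261. In the EGFP+ cells they summed to 60.2 to 61.7 in Cp and to 79.8 to 94.5 in Tp. There 1 was higher in Cp and 1 lower (4.88% and 5.28% of the probes tested). Erythroid markers (4 of 4) summed to 48585 to 61926 in the EGFP- groups and to 371 to 1282 in the EGFP+ groups, and skeletal muscle (4 of 4) to 1194 to 2994 and to 70.1 to 160. Myeloid markers (4 of 4) summed to 276 to 460 in the EGFP- groups and to 27.9 to 47.9 in the EGFP+ groups. No list had a marker below the blank limit on every array of a group. The part of the cell types in the values of the 3 genes was not tested.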

How the data were processed

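The authors labelled RNA of the sorted cells with Cy5 and read 9 arrays in 1 colour. They deposited scanner files, which list an intensity per spot and per surrounding ring, and a table of processed intensity values, which are linear with a median of 25 on each array. Their formula is not given in the sources used here. On the log2 scale, empty cells of that table were set to the lowest value of the array. Gene names came from the supplementary list of the study.

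Spots marked bad were left out (1 to 5 per array; none of the members), and spots of 1 probe were averaged. Background was the mean of the blank spots, followed by normexp (offset 50), quantile normalization and log2. Normexp estimates the level of background again from each array, so any constant taken off first, from blanks or negative controls, drops out. Readings are whole numbers, so dim spots often tie. A probe was tested if 2 or more arrays showed it over the limit set by the blanks, their mean plus 2 SD (21965 of 23473 probes, all 3 members among them). Every test came from 1 limma fit (limma 3.58.1, R 4.3.3) of 4 group means, which has 5 residual degrees of freedom, with p-values adjusted by Benjamini-Hochberg over all probes. The threshold was an adjusted p under 0.05. From 80.0% to 90.2% of probes passed the blank limit on an array, detector gain was 31 to 37, and the number of arrays limits the precision. The 3 genes were described in full, other genes of the Hoxb cluster with values, and other Hox genes by counts and extremes. The members and lists were chosen with earlier results of these data known. Alternatives were other offsets, the ring as background, median scaling, the processed values, other filters, scan or replicate as a block, and leaving out arrays; Tp replicate 3 as the only Tp array and a fit of the processed values blocked on the scan were chosen after seeing the data.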

Additional observations from a re-analysis of the deposited data

Results flagged for a closer look

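Of the 12 named Hox genes other than Hoxb5, Hoxb6 and Hoxb7, 3 had regional differences that differed between EGFP+ and EGFP- cells, where 7.34% of the probes tested passed, all with a wider gap between head and trunk in the EGFP- cells. Their (Cp minus Tp) minus (Cn minus Tn), in log2 normalised signal, was 1.15 for Hoxa10 (limma, adjusted p = 0.0100), 0.64 for Hoxa5 (limma, adjusted p = 0.0280) and 0.79 for Hoxd10 (limma, adjusted p = 0.0382). In the processed values of the authors it was 1.37 for Hoxa10 (limma, adjusted p = 0.0546), 0.54 for Hoxa5 (limma, adjusted p = 0.500) and 1.32 for Hoxd10 (limma, adjusted p = 0.0611), so that none of the 3 passed there. In the fit, Cp minus Cn of Hoxa10, Hoxa5 and Hoxd10 was 0.01, -0.03 and -0.02 in that order. For the most part, the 3 values are thus Tp minus Tn with its sign turned, and add no separate evidence on the regional gap. Whether they turn on single arrays was not tested.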

How the results depend on the processing

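The regional differences of Hoxb5, Hoxb6 and Hoxb7 were below 0 under every setting run and passed under all but 1. The exception was the ring as background, with a Cp minus Tp of -2.08 for Hoxb5 (limma, adjusted p = 0.209) and -3.05 for Hoxb6 (limma, adjusted p = 0.273) and a Cn minus Tn of -1.77 (limma, adjusted p = 0.286) and -1.47 (limma, adjusted p = 0.569). Leaving out each of the 9 arrays in turn, Cp minus Tp ranged from -2.88 to -2.66 for Hoxb5, from -4.47 to -4.13 for Hoxb6 and from -4.04 to -3.58 for Hoxb7, and Cn minus Tn from -2.89 to -2.62, from -3.83 to -3.74 and from -3.99 to -3.48, and all passed. The size depends on the offset: Cp minus Tp was -3.93 for Hoxb5, -5.52 for Hoxb6 and -5.03 for Hoxb7 at an offset of 16, and -5.45, -7.20 and -6.93 at 0.

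Differences near 0 changed sign with the setting, and those named next did not pass unless stated. Tp minus Tn of Hoxb5 was -0.11 in the processed values and -0.18 with Tp replicate 3 as the only Tp array, and that of Hoxb7 was 0.19 in the latter. Hoxb6 passed there, with a Tp minus Tn of 0.72 (limma, adjusted p = 0.0147) and a (Cp minus Tp) minus (Cn minus Tn) of -0.72 (limma, adjusted p = 0.0243). Cp minus Cn of Hoxb6 was -0.057 with median scaling and -0.32 in the processed values, with or without the scan as a block. For (Cp minus Tp) minus (Cn minus Tn), Hoxb5 was 0.093 in the processed values and 0.15 with Tp replicate 3 as the only Tp array, and Hoxb7 was 0.31 with the ring, and 0.13 with the scan as a block, with the replicate block and without Tp replicate 3. Leaving out each array, Tp minus Tn ranged from -0.15 to 0.16 for Hoxb5, from 0.35 to 0.69 for Hoxb6 and from -0.31 to 0.22 for Hoxb7. Cp minus Cn ranged from -0.05 to 0.00, from -0.025 to 0.032 and from -0.15 to 0.00, and the difference of the regional differences from -0.19 to 0.12, from -0.69 to -0.35 and from -0.30 to 0.23. The cause of these changes was not tested.

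The differences between replicates 1 and 2 correlated between groups at 0.0907 (Cn and Tn) to 0.597. The highest were those of Cp and Cn, at 0.597, and of Tp and Tn, at 0.547. In these pairs, arrays of the same number were scanned on the same date, so within a region the numbers tie arrays to a scan. Across regions only replicate 1 shared a scan, and nothing in the labels says that a number marks a litter or day. The replicate block ended no call on the 3 genes, and with it Cp minus Tp was -2.89 for Hoxb5, -4.13 for Hoxb6 and -3.61 for Hoxb7.

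Over all probes, 2230 passed in Cp against Tp, 341 in Cn against Tn, 1356 in Tp against Tn, 1264 in Cp against Cn and 1612 for the difference of the regional differences. In that order the counts were 89, 43, 118, 35 and 43 with the ring, and 882, 131, 533, 676 and 744 with Tp replicate 3 as the only Tp array. Blocking on the scan gave 182 in Cn against Tn, 2276 in Cp against Cn and 2527 for the last. With the processed values and that block, 2345 passed in Cp against Cn. Without 1 array, the counts ranged from 1105 to 2305, 154 to 337, 880 to 1299, 429 to 1292 and 899 to 1620.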
